A study of Homo sapiens with 12 samples.

Results

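The aryl hydrocarbon receptor response was followed through 6 genes in 12 RNA-sequencing libraries from 2 human ovarian cancer cell lines. The genes were the receptor AHR, its partner ARNT, the repressor AHRR, and the target genes CYP1A1, CYP1B1 and TIPARP. They were taken by name from a given list, and are 6 of the 19251 genes listed for each library. All 6 passed the filter on low values and were tested. The lines were CAOV3, which the labels describe as high grade serous, and TOV21G, described as clear cell, both epithelial and both labelled wild type. Cultures were seeded at 250000 cells in 1.5 mL of medium with 10% serum. They were left untreated (control) or given 150 µL of ovarian cancer ascites, stated as 10%, for 16 h. Ascites is fluid that gathers in the abdominal cavity. The labels name no vehicle for the control wells and do not say from how many patients the fluid came. Each of the 4 groups had 3 libraries.

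The aryl hydrocarbon receptor is a transcription factor that waits in the cytosol in a complex with HSP90 and its co-chaperones. Planar aromatic compounds and products of tryptophan breakdown bind it, after which it enters the nucleus, pairs with ARNT and binds DNA at sites with the core GCGTG. CYP1A1 and CYP1B1, which encode enzymes that oxidise such ligands, are its classical target genes. AHRR and TIPARP are also induced by the receptor and act back on it as inhibitors, so their levels are commonly read together with those of the CYP1 genes.

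Library totals lay between 26697609 and 34491304 recovered reads. The values are normalised read counts, that is, reads divided by a size factor per library. The epithelial markers summed to 153269.9 to 154113 in CAOV3 controls and to 11293 to 12749 in TOV21G controls, with all 6 of 6 listed. With ascites they summed to 176985 to 187539 in CAOV3 and to 10698 to 12301 in TOV21G. NAPSA, a clear cell marker, was near 0 in TOV21G controls, at 8.11 ± 3.44, while the Müllerian marker PAX8 was at 7032 ± 259 (SD, n = 3). PAX8 and WT1, which usually mark serous carcinoma, were near 0 in CAOV3 controls, at 19.1 ± 1.17 and 4.59 ± 2.11 (SD, n = 3). WT1 was higher in TOV21G controls, at 228 ± 7.85. Thus NAPSA and WT1 in TOV21G, and PAX8 and WT1 in CAOV3, go against the labels. MUC16, from the same list, was low in both lines, at 11.3 to 12.9 in CAOV3 and 3.59 to 9.76 in TOV21G controls. Among the epithelial markers, CDH1 was at only 13.3 ± 6.07 in TOV21G controls. In TOV21G the first axis of spread within groups held 44.5% of the variance. Control 1 and ascites 2 lay at one end of it, and control 2 and ascites 3 at the other. Results for the 6 genes that changed without these libraries are given with their values.

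Promoter sequences of CYP1A1, AHRR and TIPARP are shown here because these are the receptor's targets, with a listed window, whose ascites values are compared below. Each is the 250 bases before a transcription start in RefSeq on GRCh38.p14, 5′ to 3′ on the gene's strand, with matches to the core GCGTG, or to CACGC for a core on the other strand, in capitals. CYP1A1 is at chr15:74725529-74725778 on the minus strand, the first AHRR window at chr5:321464-321713 on the plus strand, and the first TIPARP window at chr3:156674340-156674589 on the plus strand.
CYP1A1: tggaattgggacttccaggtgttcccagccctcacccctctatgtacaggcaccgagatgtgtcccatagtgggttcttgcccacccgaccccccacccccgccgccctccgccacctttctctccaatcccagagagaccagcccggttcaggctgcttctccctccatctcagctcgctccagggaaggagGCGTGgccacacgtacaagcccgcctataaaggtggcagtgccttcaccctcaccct
AHRR: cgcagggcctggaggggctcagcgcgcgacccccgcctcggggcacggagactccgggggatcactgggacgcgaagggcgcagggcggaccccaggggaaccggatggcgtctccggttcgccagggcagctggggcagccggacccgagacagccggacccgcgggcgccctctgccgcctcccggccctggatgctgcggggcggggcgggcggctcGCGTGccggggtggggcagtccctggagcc
TIPARP: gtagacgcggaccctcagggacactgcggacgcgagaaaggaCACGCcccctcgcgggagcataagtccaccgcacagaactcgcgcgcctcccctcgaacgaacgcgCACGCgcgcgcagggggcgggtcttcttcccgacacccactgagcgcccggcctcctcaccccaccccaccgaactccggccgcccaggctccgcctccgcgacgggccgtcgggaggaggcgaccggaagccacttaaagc
The CYP1A1 window held 1 core, whose first base lay 57 bases before the start. The AHRR window held 1, at 30 bases before the start, and this was also a match to the longer form TNGCGTG, which contains the core. The TIPARP window held 2, both in the CACGC orientation, at 208 and 142 bases before the start. A second AHRR window, from a later start, held 2 cores, whereas 2 further TIPARP windows and the single windows of AHR and ARNT held none. Among 35116 such windows of all genes, 32.2% held the core on either strand and 4.52% held TNGCGTG or its reverse complement CACGCNA. A core in this window was therefore common, and a match is a description of the letters and no evidence of binding. RefSeq windows were matched for 5 of the 6 genes, and CYP1B1 was the gene not matched.

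Ascites was first compared with control for the receptor and its partner. AHR fell in CAOV3 and showed no called change in TOV21G. The 3 CAOV3 controls had 4293, 4559.7 and 4627 normalised reads of AHR, and the 3 ascites libraries had 3619.8, 3683 and 3765. Every ascites library was below every control. The mean went from 4493 ± 176 to 3689 ± 72.8 (SD, n = 3), a log2 difference of -0.28 (SE 0.052, adjusted p = 0.014, limma), or -17.9%. AHR was the only one of the 6 genes called in this comparison, with limma, edgeR and DESeq2 alike. Of all 17616 genes tested 1.73% were called, 0.636% higher and 1.1% lower, while edgeR called 2.9% and DESeq2 3.66% of those it gave an adjusted p. The call was lost when 1 of 4 libraries was left out: CAOV3 control 2 (adjusted p = 0.0572), control 3 (0.0687), ascites 1 (0.0652) or ascites 2 (0.0586), with the difference between -0.32 and -0.26 over all such fits.

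In TOV21G the AHR values were 1926, 2252 and 2063 in controls and 2154, 2076 and 2043 with ascites. The groups overlapped, and the difference was 0.01 (95% interval -0.10 to 0.12, adjusted p = 0.985). The difference between the lines' responses was 0.29 (SE 0.074), and its adjusted p of 0.135 missed the threshold. Of the 12 fits that left out 1 library, it was called in 1, without TOV21G control 2, the highest of its group (0.35, adjusted p = 0.0289). The highest adjusted p of these fits was 0.312, without TOV21G ascites 1. DESeq2 on the recovered reads called it (0.29, adjusted p = 0.0209), and edgeR did not.

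ARNT, which pairs with the receptor and with the hypoxia factors, showed no called response in either line. In CAOV3 it was at 824, 755 and 850.1 in controls and at 773, 802 and 789.8 with ascites, which overlapped. In TOV21G it was at 2076, 1996 and 1982 in controls and at 1962, 1971 and 1958 with ascites, so that every ascites library lay just below every control. The log2 difference was -0.04 in both lines (SE 0.046, adjusted p = 0.81 in CAOV3 and 0.806 in TOV21G). The 95% intervals ran from -0.14 to 0.06 in each.

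**Figure D1:**
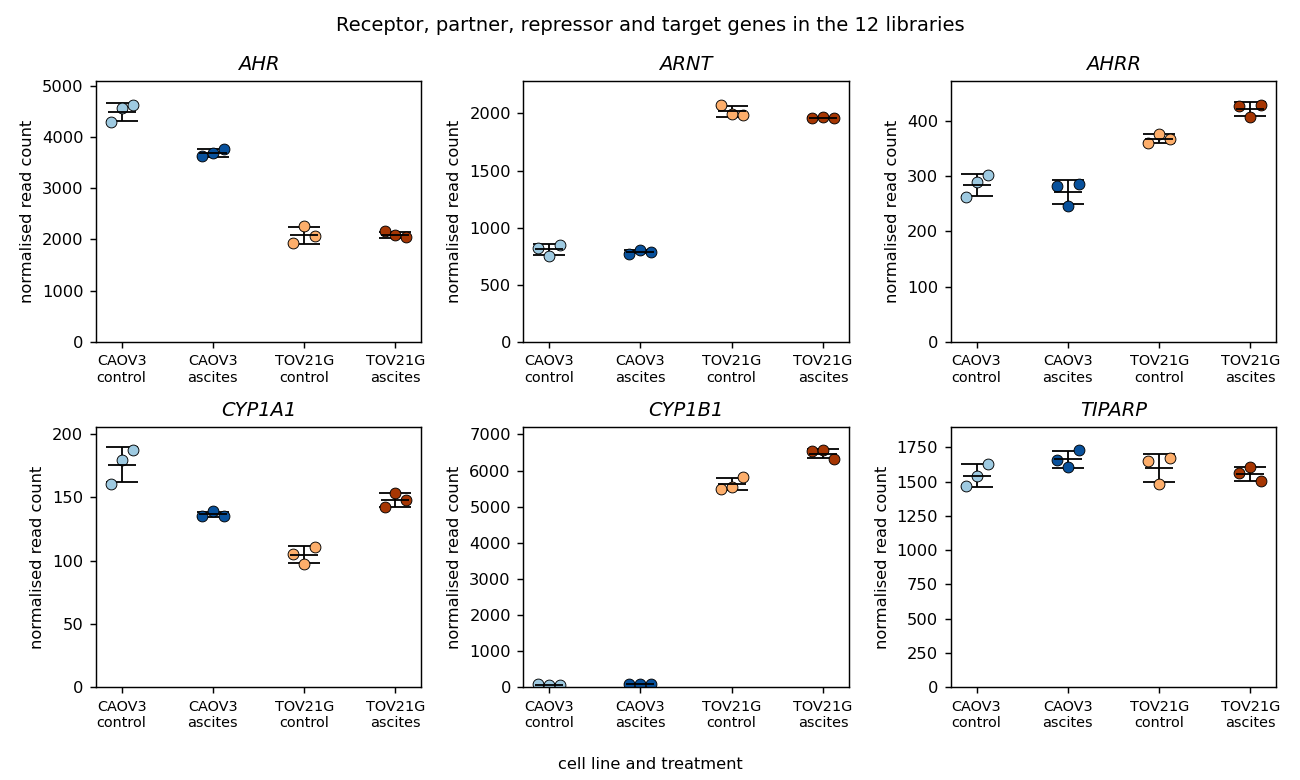
Normalised read counts of the 6 genes on linear axes from 0, with 1 point per library and bars for the mean and SD of 3 libraries in each group. AHR lies lower with ascites than without in CAOV3, and CYP1A1 lies lower with ascites in CAOV3 but higher in TOV21G; the CAOV3 values of CYP1B1, 67.8 to 99.2, sit close to the axis.

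CYP1A1, the target most often used to read the receptor's activity, lay on opposite sides of its controls in the lines. In CAOV3 its controls were at 160.0, 179.6 and 187 normalised reads and its ascites libraries at 135, 139 and 135. In TOV21G its controls were at 105, 97.5 and 111 and its ascites libraries at 142, 153 and 148. In neither line did the groups overlap. In CAOV3 the controls spread more widely than the gap that parted them from the ascites libraries.

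The mean of CYP1A1 was 176 ± 14.0 in CAOV3 controls and 136 ± 2.47 with ascites (SD, n = 3), a log2 difference of -0.36 (SE 0.098, adjusted p = 0.104), or -22.1%. In TOV21G it was 105 ± 6.89 in controls and 148 ± 5.32 with ascites, a log2 difference of 0.50 (SE 0.098, adjusted p = 0.052), or 40.9%. Neither line's response passed the threshold by itself. The TOV21G response did pass with edgeR (0.52, adjusted p = 0.024), with TMM scaling (0.52, adjusted p = 0.0271), with a pseudocount of 5 (0.48, adjusted p = 0.0414), with no filter (0.50, adjusted p = 0.0462) and with a stricter filter (0.50, adjusted p = 0.0406). It passed in none of the 12 fits that left out 1 library, where adjusted p ran from 0.0708 to 0.162.

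The test of the difference between the lines was passed by CYP1A1. The TOV21G response exceeded the CAOV3 response by 0.86 on the log2 scale (SE 0.14, 95% interval 0.55 to 1.16, adjusted p = 0.0157), a ratio of 1.81. With limma it was the only one of the 6 genes called in this comparison, in which 0.545% of all genes tested were called, 0.238% higher and 0.307% lower in TOV21G. With edgeR it was also the only one (0.84% of all genes), and DESeq2 called AHR as well (1.59% of the genes it gave an adjusted p). The difference was between 0.81 and 0.92 in the 12 fits that left out 1 library, and it kept its call in 10 of them. It lost it without CAOV3 ascites 1 (0.85, adjusted p = 0.0533) and without CAOV3 ascites 3 (0.85, adjusted p = 0.0531). It also lost it without TOV21G control 2 and ascites 3 together (0.81, adjusted p = 0.0621). The level of CYP1A1 rested on 93 to 189 recovered reads per library, and no other annotated gene overlaps it at chr15:74719542-74725610.

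**Figure D2:**
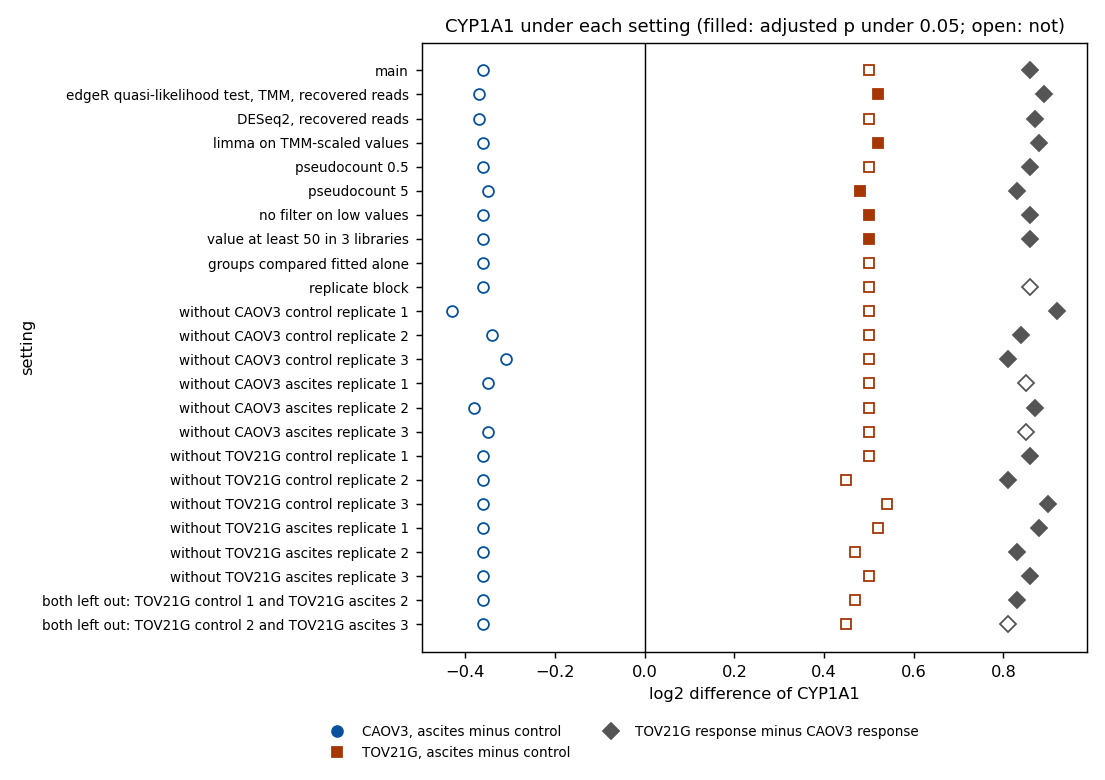
Log2 difference of CYP1A1 (x axis) under the main setting and each alternative (y axis), with filled symbols for an adjusted p under 0.05. The CAOV3 response stays below 0, the TOV21G response above 0 and their difference between 0.81 and 0.92 throughout. The CAOV3 response is called under none of these settings, while the calls on the TOV21G response and on the difference change between them.

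CYP1B1, which oxidises aromatic compounds and oestrogens, was above its controls with ascites in both lines without passing the test in either. In CAOV3 it had 87.4, 67.8 and 74.2 normalised reads in controls and 89.7, 99.2 and 96.2 with ascites. The groups did not overlap, but control 1 was close to the lowest ascites library. The difference was 0.32 (SE 0.077, adjusted p = 0.063). Without control 1, the highest of its group, it was 0.42 with an adjusted p of 0.00495 (limma). That was the only 1 of the 12 fits leaving out 1 library in which it was called. The highest adjusted p of these fits was 0.199, without ascites 2. In CAOV3 neither edgeR nor DESeq2 called it.

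In TOV21G the CYP1B1 controls had 5499.9, 5552 and 5823 and the ascites libraries 6531, 6562 and 6319. All ascites libraries were above all controls. The difference was 0.20 (SE 0.077, adjusted p = 0.451), or 15.1%. Both count tests called it, edgeR at 0.23 (adjusted p = 0.0119) and DESeq2 at 0.20 (adjusted p = 0.003). With limma on the TOV21G libraries alone it was 0.20 with an adjusted p of 0.341, so the call differed between limma and the count tests. The difference between the lines' responses was not called (-0.11, 95% interval -0.35 to 0.12, adjusted p = 0.668).

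The feedback inhibitors did not pass the test in either line. AHRR competes with the receptor for ARNT. Its TOV21G controls were at 359.9, 376 and 367 normalised reads and its ascites libraries at 427, 407 and 429, which lay above all controls. This difference of 0.19 (SE 0.076) had an unadjusted p of 0.0246 in limma, a level that 9.17% of all genes reached, and an adjusted p of 0.464. In CAOV3 AHRR was at 262, 289 and 301 in controls and at 282, 246 and 285 with ascites, which overlapped (-0.07, adjusted p = 0.788). Without ascites 2, the lowest of those libraries, the CAOV3 difference was 0.0009. The lines' responses differed by 0.26 (SE 0.11, adjusted p = 0.384).

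TIPARP encodes an enzyme that adds ADP-ribose to the receptor and lowers its activity. It was at 1466, 1539 and 1628 in CAOV3 controls and at 1657, 1605 and 1729 with ascites. In TOV21G it was at 1647, 1483 and 1669 in controls and at 1566, 1603 and 1503 with ascites. The groups overlapped in both lines. The differences were 0.11 in CAOV3 (SE 0.055, adjusted p = 0.439) and -0.04 in TOV21G (SE 0.055, adjusted p = 0.856).

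Counted over the 6 genes with limma, CAOV3 gave 0 called higher and 1 called lower. TOV21G gave 0 called in either direction, against 0.409% of all genes there, 0.142% higher and 0.267% lower. At an unadjusted p under 0.05 limma held 3 of the 6 in CAOV3 (12.9% of all genes) and 3 of the 6 in TOV21G (9.17% of all genes). In TOV21G edgeR called 2 of them higher, CYP1A1 and CYP1B1, beside 0.647% of all genes called by edgeR in either direction. DESeq2 called 1, CYP1B1, beside 1.06% of the genes it gave an adjusted p. The median log2 difference of the 6 was -0.05 in CAOV3 and 0.10 in TOV21G, while the median of all genes tested was -0.0021 and -0.02. The ascites and control libraries did not overlap for 3 of the 6 genes in CAOV3 (24.2% of all genes) and for 4 of the 6 in TOV21G (11.1% of all genes). In CAOV3 they were CYP1B1 above the controls (11.4% of all genes) and AHR and CYP1A1 below (12.8%). In TOV21G they were AHRR, CYP1A1 and CYP1B1 above (4.16%) and ARNT below (6.99%). Of the 4 target and feedback genes, 2 had a difference above 0 in CAOV3 and 3 in TOV21G. In bulk RNA a change in the share of cells that express a gene and a change per cell cannot be told apart.

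**Figure D3:**
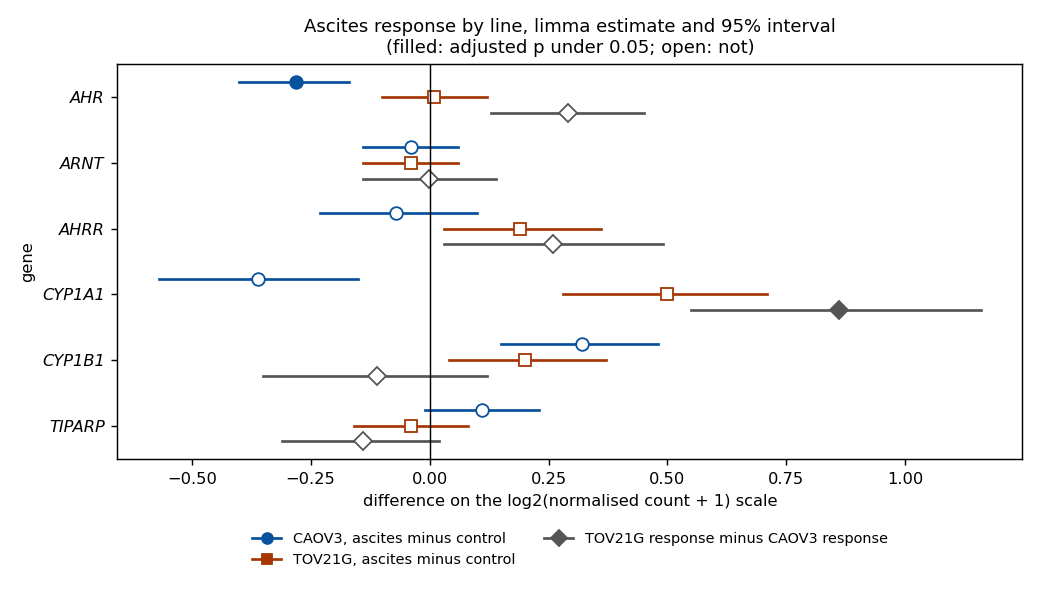
Log2 differences with their 95% intervals from limma for each gene (y axis), as ascites minus control in CAOV3 and in TOV21G and as the difference between these responses, with filled symbols for an adjusted p under 0.05. The filled symbols are AHR in CAOV3 (-0.28) and the difference between lines for CYP1A1 (0.86).

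Untreated lines were compared next, with TOV21G set against CAOV3. ARNT, AHRR and CYP1B1 were higher in TOV21G controls, AHR and CYP1A1 were lower, and TIPARP was not called. Thus 5 of the 6 genes were called, in a comparison in which 82.2% of all genes tested were called, 40.8% higher and 41.4% lower. The count of calls is therefore near the background, and the sizes of the differences are what the data give. These 5 calls held in each of the 12 fits that left out 1 library and in each other alternative that was run for this comparison.

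CYP1B1 had the widest gap. It averaged 76.5 ± 10.0 in CAOV3 controls and 5625 ± 173 in TOV21G controls (SD, n = 3), a log2 difference of 6.19 (SE 0.077, adjusted p = 4.16e-16), or 73.0-fold. CYP1B1 lies at chr2:38066973-38109902 on the minus strand. RMDN2 and CYP1B1-AS1 overlap it on the other strand and RMDN2-AS1 on the same strand. Whether the libraries kept strand is not given in the sources used here, so shared reads are possible. RMDN2 was at 105 ± 4.26 in CAOV3 and 90.3 ± 4.32 in TOV21G controls, and CYP1B1-AS1 was at 2.86 ± 3.11 and 30.1 ± 4.38, all far below CYP1B1 in TOV21G. In CAOV3 controls RMDN2 was above CYP1B1 (76.5 ± 10.0), so shared reads would weigh more there, and their part was not tested.

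CYP1A1, its neighbour in function, went the other way at baseline. It was at 176 in CAOV3 and 105 in TOV21G controls, a log2 difference of -0.74 (SE 0.098, adjusted p = 9.23e-06), or 0.599-fold. AHR was also lower in TOV21G controls, at 2080.3 ± 164 against 4493 ± 176, a difference of -1.11 (SE 0.052, adjusted p = 1.48e-10). ARNT was higher, at 2018 ± 50.5 against 809.7 ± 49.1, a difference of 1.32 (SE 0.046, adjusted p = 5.99e-12). The line with more receptor mRNA was thus the line with less partner mRNA.

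AHRR was 1.3-fold higher in TOV21G controls, at 368 ± 8.28 against 284 ± 19.9 (0.37, SE 0.076, adjusted p = 0.00046). AHRR, at chr5:304176-438291 on the plus strand, shares its strand and part of its span with PDCD6, so reads there could be split. PDCD6 was at 2821 ± 26.6 in CAOV3 and 2994 ± 92.8 in TOV21G controls, and showed no called response to ascites in either line. TIPARP was at 1545 ± 81.0 in CAOV3 and 1599.6 ± 101 in TOV21G controls, a difference of 0.05 (95% interval -0.07 to 0.17, adjusted p = 0.408). Over all 12 libraries TIPARP lay between 1466 and 1729, a range within which all 4 groups fell.

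Ordered over the 4 groups, AHR was highest in CAOV3 controls, then in CAOV3 with ascites, with the TOV21G groups below and not separable from each other. CYP1A1 ran from CAOV3 controls to TOV21G with ascites, CAOV3 with ascites and TOV21G controls. Its middle groups lay next to each other, at 148 ± 5.32 and 136 ± 2.47. CYP1B1 and ARNT separated the lines, with either treatment in TOV21G above either treatment in CAOV3. AHRR was highest in TOV21G with ascites, then in TOV21G controls, and its CAOV3 groups overlapped.

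Levels of different genes were compared per kilobase of exon. In CAOV3 controls AHR was at 556 normalised reads per kb, TIPARP at 306, ARNT at 124, CYP1A1 at 51.1, AHRR at 37.0 and CYP1B1 at 12.7. In TOV21G controls CYP1B1 came first at 935 per kb, followed by TIPARP at 317, ARNT at 309.7, AHR at 257, AHRR at 47.9 and CYP1A1 at 30.5. On this scale CYP1B1 was the lowest of the 6 in CAOV3 and the highest in TOV21G.

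**Figure D4:**
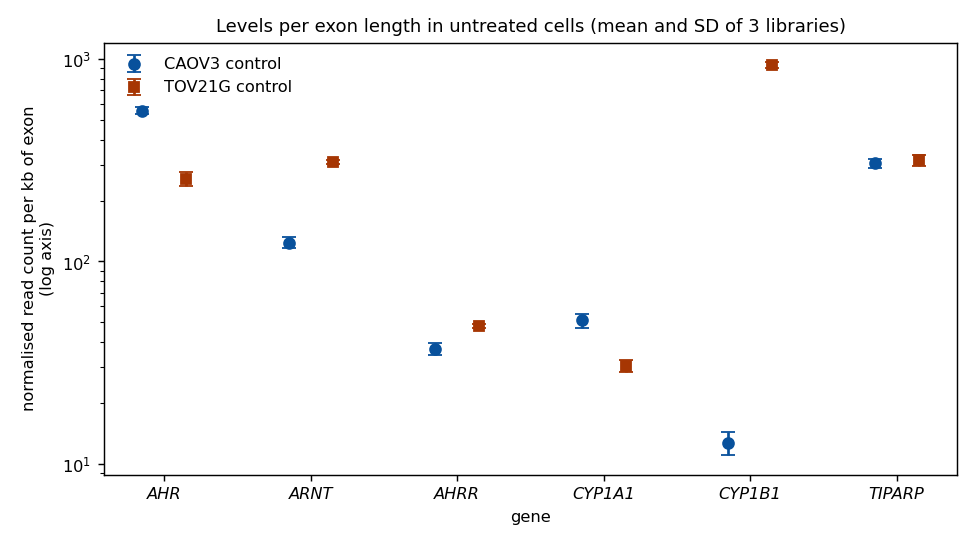
Mean and SD of 3 control libraries per line for each gene, as normalised reads per kb of exon on a log axis. CYP1B1 moves from the lowest of the 6 in CAOV3 (12.7) to the highest in TOV21G (935), while the TIPARP values of the lines (306 and 317) lie side by side.

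Other genes of the pathway were taken from 5 lists. The lists were chosen with earlier results of these data known, so counts of calls in them are a description. They held 43 genes. Of these, 35 were listed and tested, and the other 8 are not analysed here: SIM1, CYP1A2, UGT1A6, SERPINB2, IL1B, IDO1, IDO2 and TDO2. With limma, 3 of the 35 were called higher with ascites in CAOV3 (0.636% of all genes) and 0 lower (1.1%). In TOV21G 1 was called higher (0.142% of all genes) and 0 lower (0.267%). All of these calls fell in the list of other reported targets, of which 8 genes were tested.

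EREG, which encodes the growth factor epiregulin, rose in both lines. It went from 2102 ± 64.8 to 2662 ± 77.0 in CAOV3 (0.34, SE 0.037, adjusted p = 0.000326). In TOV21G its mean was 14165 ± 131 without and 16569 ± 418 with ascites (0.23, SE 0.037, adjusted p = 0.0198). The TOV21G call was lost without TOV21G control 1 (adjusted p = 0.0524), control 3 (0.0857) or ascites 1 (0.0836), and when TOV21G was fitted alone (0.341). The same call was also lost without TOV21G control 1 and ascites 2 together (0.0533, limma) and without control 2 and ascites 3 together (0.0569). With the replicate block its adjusted p was 0.286.

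AREG, which encodes the related growth factor amphiregulin, rose in CAOV3. Its controls were at 469, 373 and 394 and its ascites libraries at 613, 589 and 576, which did not overlap (0.53, SE 0.086, adjusted p = 0.00573). In TOV21G its groups overlapped (-0.09, adjusted p = 0.759). The difference between lines was -0.62 (SE 0.12, adjusted p = 0.0421), but the call held in only 3 of the 12 fits that left out 1 library. The highest adjusted p of these fits was 0.133, without TOV21G control 3. The call was also lost without TOV21G control 2 and ascites 3 together (adjusted p = 0.0876, limma) and with the replicate block (0.211). With a pseudocount of 0.5 its adjusted p was 0.051. STC2, which encodes the secreted glycoprotein stanniocalcin 2, rose in CAOV3 from 4409 ± 140.3 to 5459 ± 152 (0.31, adjusted p = 0.00642). The CAOV3 calls of these 3 genes held in all 12 fits that left out 1 library, but that of AREG was lost when CAOV3 was fitted alone (0.53, adjusted p = 0.0613). Each has regulators other than the aryl hydrocarbon receptor, whose part was not tested.

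NQO1, ALDH3A1, ABCG2, SLC7A5 and NEDD9, the remaining targets, were not called with ascites in either line with limma. SLC7A5 encodes an amino acid transporter that imports tryptophan and kynurenine. It was at 12902 ± 285 in CAOV3 controls and 14534 ± 137 with ascites (0.17, adjusted p = 0.201), and DESeq2 called it higher there. Its difference between lines was -0.29 (adjusted p = 0.195, limma). DESeq2 called that difference, with 1.59% of the genes it gave an adjusted p, and edgeR did not. The 3 genes of the cytosolic complex, 8 related bHLH-PAS factors, 7 coregulators and 9 tryptophan enzymes also gave 0 calls with ascites in either line with limma. Of all genes limma called 1.73% in CAOV3 and 0.409% in TOV21G. At an unadjusted p under 0.05 limma held 6 of these 27 in CAOV3 (12.9% of all genes) and 4 in TOV21G (9.17% of all genes). In CAOV3 edgeR called the tryptophan enzyme QPRT lower, and DESeq2 called QPRT and the coactivator NCOA2 lower. Of all genes edgeR called 2.9% there, and DESeq2 called 3.66% of those it gave an adjusted p. In TOV21G edgeR and DESeq2 both called the corepressor NRIP1 higher. The shares called in that line were 0.647% with edgeR and 1.06% with DESeq2.

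**Figure D5:**
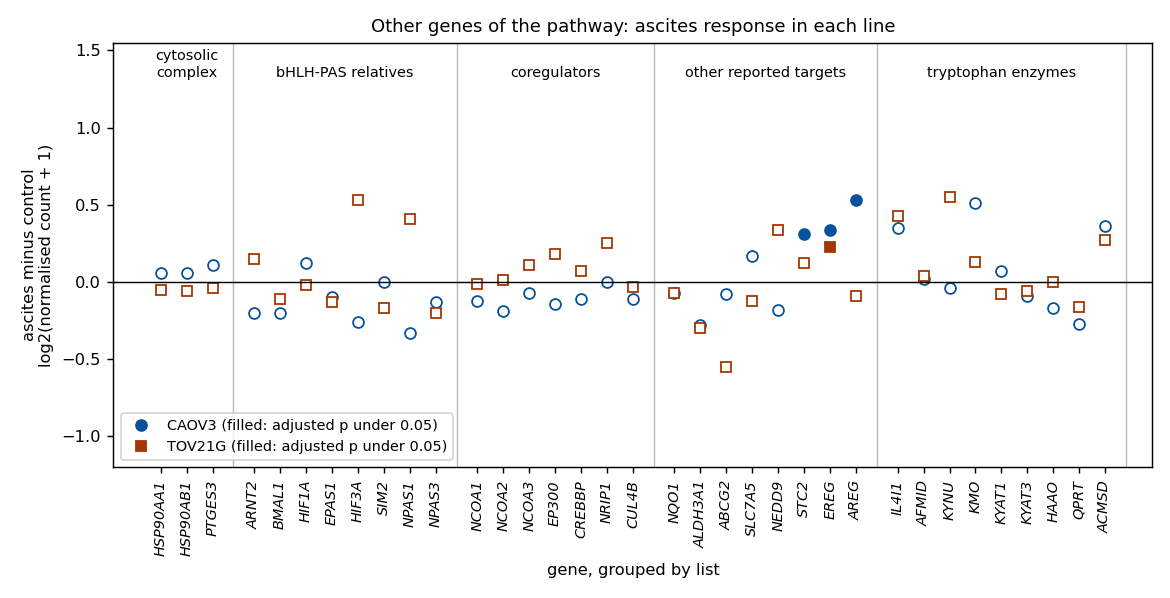
Log2 difference of ascites minus control (y axis) for the 35 pathway genes tested, grouped by list, with circles for CAOV3, squares for TOV21G and filled symbols for an adjusted p under 0.05. The filled symbols are STC2, EREG and AREG in CAOV3 and EREG in TOV21G; genes with few reads in 1 line, such as HIF3A, KMO and ABCG2, have unstable fitted differences there.

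Between untreated lines, 28 of the 35 pathway genes were called, 17 higher and 11 lower in TOV21G. Of all genes tested 82.2% were called, 40.8% higher and 41.4% lower. In the cytosolic complex all 3 tested genes were lower in TOV21G controls. PTGES3, the HSP90 co-chaperone p23, was at 19485 ± 759.8 in CAOV3 and 11844 ± 656 in TOV21G, a log2 difference of -0.72, and HSP90AA1 and HSP90AB1 differed by -0.33 each.

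Among the 8 bHLH-PAS relatives 4 were called higher (40.8% of all genes) and 3 lower (41.4%) in TOV21G controls. The widest gaps were in HIF3A, NPAS3 and NPAS1, all higher in CAOV3. HIF3A had 185 recovered reads in the CAOV3 controls and 6 in those of TOV21G, a ratio of 32.7 after scaling (95% counting interval 14.7 to 90.2). NPAS3 had 36 and 2 (ratio 19.1, 4.91 to 164). NPAS1 differed by -2.81 on the log2 scale. These are factors with few reads.

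Among the 7 coregulators 3 were called higher (40.8% of all genes) and 0 lower (41.4%) in TOV21G controls. NRIP1, a nuclear receptor corepressor, averaged 4149.5 ± 70.4 normalised reads in TOV21G controls and was at 0 in all CAOV3 libraries. It was at least 1297-fold higher in TOV21G, against a floor of 3 reads in a library. The coactivators NCOA3 and NCOA1 were higher by 1.75 and 1.18.

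Among the 8 other targets 3 were called higher (40.8% of all genes) and 3 lower (41.4%). ABCG2, an efflux transporter, had 1458 recovered reads in CAOV3 and 2 in TOV21G controls, a ratio of 773 (214 to 6388). EREG was higher in TOV21G by 2.75 and the quinone reductase NQO1 by 2.73. Of the 9 tryptophan enzymes 7 were called higher (40.8% of all genes) and 2 lower (41.4%). KMO, which hydroxylates kynurenine, had 655 reads in TOV21G and 1 in CAOV3 controls (ratio 618, 111 to 24439.9). IL4I1, an amino acid oxidase whose products can bind the receptor, was at 237 ± 22.1 in TOV21G and 11.3 ± 5.15 in CAOV3. HAAO, which acts later in the pathway, was at 0 in all TOV21G libraries and at 409.9 ± 6.34 in CAOV3 controls, at least 135-fold higher there.

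To see which genes varied most like each of the 6, Pearson's r was taken over the 12 libraries on log2(value + 1) after subtracting each line's mean. The genes were chosen as the highest 3 among all tested, so r is a description. For CYP1A1 these were NRG4 (r = 0.92), ANKRD33B (0.917) and ADIRF-AS1 (0.907). ANKRD33B was at 1552 ± 49.6 and 1347 ± 61.2 in CAOV3 without and with ascites and at 2257 ± 76.0 and 2809 ± 80.3 in TOV21G, the same pattern of sides as CYP1A1. ADIRF-AS1 had it too, at 221 ± 9.41 and 184 ± 6.64 in CAOV3 and 25.5 ± 1.09 and 33.6 ± 2.16 in TOV21G. Such a shared pattern follows from choosing genes by r. NRG4 was near 0 in TOV21G.

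For AHR the genes were PDLIM5 (r = 0.946), RAD51D (0.937) and SYNM (0.928), which were all lower with ascites than without in the CAOV3 means. For ARNT they were S100A1 (0.953), SRBD1 (0.939) and SEC31A (0.903). For AHRR they were the unnamed ENSG00000259407 (0.959), LINC03044 (0.935) and POU2F2 (0.905), the first pair with low counts. For CYP1B1 they were ESR2 (0.926), MIR4435-2HG (0.909) and the unnamed ENSG00000258430 (0.898), of which only MIR4435-2HG was well above the filter. For TIPARP they were DNAJA1 (0.944), C11orf58 (0.939) and VRK1 (0.923). No gene stood in more than 1 of these lists.

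Markers of other cells that ascites could carry were read beside these results. Of 7 leukocyte markers 2 were listed, CD14 and LYZ. Their sum was 117 to 134 in CAOV3 controls and 101 to 125 with ascites, and 8.39 to 13.0 and 11.6 to 20.4 in TOV21G, where LYZ was at 0. Of 5 mesothelial or fibroblast markers 4 were listed, with sums of 4294 to 5031 and 3869.9 to 4078 in CAOV3 and 1846 to 2058 and 1786 to 1943 in TOV21G. Most of each sum came from 1 gene, LUM in CAOV3 (4196 ± 366 in controls) and COL1A1 in TOV21G (1945 ± 109.5 in controls). The erythroid markers are not analysed here. Among the 6 epithelial markers, KRT8 (0.29, adjusted p = 0.0231) and KRT18 (0.33, adjusted p = 0.0102) rose with ascites in CAOV3, the line in which AHR fell. Neither was called in TOV21G. The difference between the lines' responses was called for KRT8 (-0.41, adjusted p = 0.0483, limma), with the opposite sign to that of CYP1A1 (0.86). It was not called for KRT18 (-0.36, adjusted p = 0.0852). The other epithelial markers were not called in CAOV3 and did not share a direction. EPCAM (0.17) and KRT7 (0.18) were above 0 and KRT19 (-0.06) below. CDH1 went from 425 ± 33.1 to 272 ± 8.43 (-0.64, adjusted p = 0.438, limma), with every CAOV3 ascites library below every control. The part of other cells, or of these epithelial changes, in the responses was not tested.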

How the data were processed

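RNA was sequenced in 12 libraries, 3 for each of 4 groups taken from the sample titles. Trim Galore, cutadapt, STAR, HTSeq and DESeq were used, per the submitters' processing notes. Versions, genome build, annotation and strandedness are not given in the sources used here. The authors deposited 1 signal value per gene and library, which was reads per gene over a scaling factor of the library: the values were whole multiples of 1 step per library, so whole reads were recovered from them. Symbols came from a gene name table for 19087 identifiers and from GENCODE 29 for 136 more; 28 stayed unnamed. Positions are from GENCODE 29 on GRCh38.

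The values were tested on the log2(value + 1) scale with limma 3.58.1 in R 4.3.3 (lmFit, eBayes with trend), with all 12 libraries in 1 fit. Fold changes on this scale understate the change of low genes. Genes with a value of at least 10 in 3 libraries were kept (17616). P-values are two-sided and adjusted over all of these within a contrast by the Benjamini-Hochberg method, with a call under 0.05. The fit was also run on simulated counts, drawn independently with the same dispersion for every gene. They lacked the axis of spread within groups seen in these libraries, so the run does not show how the fit performs here. Alternatives were edgeR 4.0.16 and DESeq2 1.42.0 on the recovered reads, TMM scaling, other pseudocounts and filters, each comparison fitted alone, a replicate block and leaving out libraries. Replicates of a group differed beyond read sampling (chi-square per degree of freedom 1.81 to 22.6). Nothing says that they came from separate cultures, so p-values measure the spread between these libraries, which may be technical.

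The 6 genes and the lists were chosen with earlier results of these data known. A list gene and a marker gene are not reported here. Named genes were the 6 members, list genes called with ascites or in the difference between lines, the 3 genes per list with the largest called difference between control groups, and the 3 genes most correlated with each member. Genes named outside this rule (SLC7A5, QPRT, NCOA2, NQO1, ALDH3A1, ABCG2 and NEDD9 with ascites, the genes overlapping a member, and the marker genes) were named after their values were seen. The ascites comparisons and the comparison of untreated lines use the same control libraries.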

Additional observations from a re-analysis of the deposited data

Results flagged for a closer look

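CYP1A1 was singled out because its ascites responses differed between the lines by the test of the difference itself: 0.86 on the log2 scale (TOV21G minus CAOV3, adjusted p = 0.0157, limma). All 3 TOV21G ascites libraries were above their controls and all 3 CAOV3 ascites libraries below theirs.

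AREG was singled out by the same test, with a difference of -0.62 (adjusted p = 0.0421, limma). That call held in only 3 of the 12 fits that left out 1 library. It was lost with a pseudocount of 0.5 (adjusted p = 0.051) and with the replicate block (0.211). AREG was higher with ascites in CAOV3, where the libraries did not overlap, and overlapped its controls in TOV21G.

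NEDD9, which encodes a scaffold protein of cell adhesion signalling, was singled out because its libraries lay on opposite sides of the controls in the lines. In CAOV3 the controls were at 120.5 to 137 normalised reads and the ascites libraries at 112 to 115. In TOV21G the controls were at 139 to 158 and the ascites libraries at 181 to 188. The difference between responses was 0.52 (SE 0.13), and its adjusted p of 0.151 in limma missed the threshold.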

How the results depend on the processing

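The 24 results for the 6 genes were recomputed under each alternative, which gave 540 values. Of these, 508 kept their direction and their side of the threshold, 9 lost a call, 11 gained one and 12 changed sign; all that changed sign were AHR in TOV21G, AHRR in CAOV3 and the ARNT difference between lines, none of them called. The cause of these changes was not tested. Leaving out a pair of libraries together was chosen after seeing the data.

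Genes called with ascites in CAOV3 numbered 305, and 511 with edgeR, 507 with DESeq2 and 614 without TOV21G control 1 and ascites 2, with 172 to 344 when 1 library was left out (193 and 177 without CAOV3 control 1 or 3, 194 and 172 without CAOV3 ascites 1 or 2). In TOV21G the 72 became 114, 151 and, fitted alone, 8, with 24 to 136 (45 without CAOV3 ascites 3, 39 and 24 without TOV21G control 1 or 3, and 40, 136 and 39 without TOV21G ascites 1, 2 or 3). For the difference between lines the 96 became 148 with edgeR, 210 with DESeq2 and 178 without TOV21G control 1 and ascites 2, with 40 to 146: 10 of the 12 omissions moved it by over 1.5 times, the exceptions being TOV21G control 1 and control 2. In TOV21G 34.7% of the calls were higher, and 44.7% with edgeR.

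Leaving out 1 library moved AHR in CAOV3 between -0.32 and -0.26, AHRR in CAOV3 between -0.12 and 0.0009, CYP1B1 in CAOV3 between 0.23 and 0.42 and AHR in TOV21G between -0.04 and 0.07. It moved the difference between lines of AHR between 0.24 and 0.35, of ARNT between -0.04 and 0.05 and of CYP1A1 between 0.81 and 0.92. AHR in TOV21G reversed to -0.04 without control 1, to -0.01 without ascites 1 and to -0.04 without control 1 and ascites 2. The ARNT difference was 0.03 with edgeR, 0.0028 with DESeq2, 0.02 with TMM scaling, 0.02 without TOV21G control 1 and ascites 2, and above 0 when 1 of 4 libraries was dropped (0.05, 0.01, 0.02 and 3.3e-05). The AHR difference was called with DESeq2 (0.29) and without TOV21G control 2 and ascites 3 (0.37), where the CYP1A1 difference lost its call (0.81). CYP1A1 in TOV21G was called with edgeR (0.52), TMM scaling (0.52), a pseudocount of 5 (0.48), no filter (0.50) and a minimum of 50 (0.50), and CYP1B1 in TOV21G with edgeR (0.23) and DESeq2 (0.20).

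With the replicate number as a block the counts were 116, 13 and 9, AHR in CAOV3 stayed at -0.28 (adjusted p = 0.0953) and the CYP1A1 difference at 0.86 (adjusted p = 0.148), both uncalled. Libraries of the same number did not deviate together (r between -0.0196 and 0.019 in CAOV3, and -0.113, -0.332 and 0.0193 in TOV21G). With 3 libraries per group these values cannot tell whether samples of the same number shared a culture or a day. The block was not run between control groups, which are different lines. CYP1A1 in either line and CYP1B1 in CAOV3 rested on 63 to 189 reads a library; what change that depth could detect was not tested.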
